A study of Homo sapiens with 5 samples.

Results

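The MYC locus of MOLT-4 cells, an established line of human T cell acute lymphoblastic leukaemia (T-ALL), was described from all peaks of 3 CUT&RUN lists that touched 1 window of chromosome 8, from 128600000 to 130800000 in hg19. The window spans 2.2 Mb and holds MYC, its neighbour PVT1 and a long stretch downstream with enhancers known to act on MYC. Its bounds are positions and use no measured value, but it was proposed with earlier results of these data known. It held 58 of 51392 peaks on chromosomes 1 to 22 and X, with 6 of 13181 from the H3K4me3 list, 50 of 36736 from the RUNX1 list and 2 of 1475 from the SMA4 list. In CUT&RUN, an antibody brings a fusion of protein A/G and micrococcal nuclease to its target, and the DNA cut free is sequenced.

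The labels name no treatment of the cells, and each antibody (H3K4me3, RUNX1 and SMA4) had 1 library. The SMA4 label adds the antibody's maker and catalogue number but does not spell out the target, so the name is used as given. The other 2 samples of the series are IgG controls, which were not analysed here. There were thus no replicates, and every value below describes a single library. The lists give positions only, with no read count or score, so the depth and strength behind a peak are unknown and width is the only size a peak has. The SMA4 list also came from another batch and peak-calling pipeline than the other lists, which cannot be told apart from the antibody. The identity of the line was not checked against marker genes, as peaks were not assigned to genes.

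MYC encodes a transcription factor that drives cell growth and division, and many T-ALL cells depend on it. In T-ALL, activated NOTCH1 raises MYC through an enhancer far downstream of the gene, here taken near 130.18 Mb. A second group of enhancers, here taken as 130.5 to 130.7 Mb, is used by blood stem cells and other leukaemias. PVT1 is a long noncoding RNA gene just downstream of MYC that also hosts several microRNAs. H3K4me3 marks active promoters and is usually weak at distal enhancers. RUNX1, a transcription factor needed for blood and T cell development, binds DNA together with CBFB and occupies both promoters and enhancers.

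RUNX1 peaks were spread unevenly over the window and most lay far from MYC. The window was divided into 9 segments, each peak being placed by its midpoint. The MYC gene with 5 kb on either side held 5 RUNX1 peaks, and PVT1 (128.81 to 129.11 Mb) held 5. The 100 kb centred on the NOTCH-dependent enhancer held 13, and the 270 kb between it and the blood enhancer cluster held 17. These last 2 segments make up 16.8% of the window but held 30 of the 50 RUNX1 peaks (60.0%) and 68.7% of the bases in RUNX1 peaks. For its length of 15.37 kb, the MYC segment was the densest, at 325 RUNX1 peaks per Mb, against 130 and 63.0 in these 2. This order depends on where the segments were cut, since MYC was cut close to its peaks and the enhancer segment was not. With RUNX1 peaks joined at gaps of up to 10 kb, peaks filled similar shares of the largest groups. They filled 53.0% of 9.4 kb at MYC, 52.6% of 22.9 kb around the enhancer point and 45.5% of 18.3 kb in the stretch after it. The blood enhancer cluster itself held 1 RUNX1 peak in 200 kb. No peak of any list lay in the first 143.3 kb of the window, which end 5 kb before the MYC start.

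**Figure D1:**
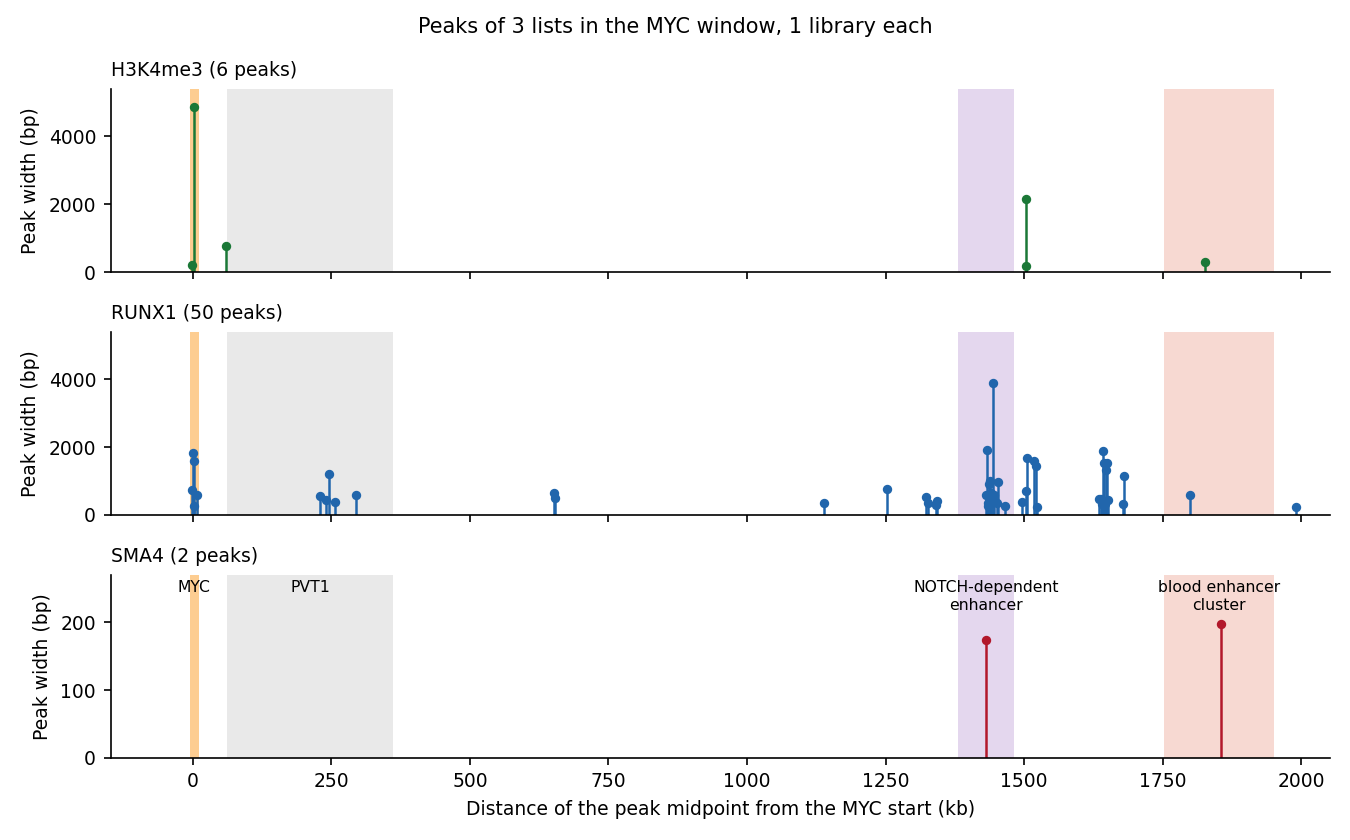
Width of each peak (bp, vertical axis) against the distance of its midpoint from the MYC start (kb, horizontal axis) for the H3K4me3, RUNX1 and SMA4 lists; the SMA4 panel has its own vertical scale, and shading marks MYC with 5 kb on either side, PVT1, the NOTCH-dependent enhancer with 50 kb on either side and the blood enhancer cluster. Of the 50 RUNX1 peaks, 5 lie at MYC and 30 between 1430.2 and 1680.2 kb downstream, with the others elsewhere. H3K4me3 has its widest peak, of 4871 bp, at MYC.

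At MYC, 1 wide H3K4me3 peak covered the gene's start and most of its length, and RUNX1 peaks lay along it. The H3K4me3 peak ran from 128747463 to 128752333 (4871 bp), from 852 bp before the MYC start to 4018 bp after it, within a gene of 5366 bp (128748315 to 128753680). It ranked 26 by width among 13181 H3K4me3 peaks, so that 0.197% of the list was at least as wide. A narrow H3K4me3 peak of 202 bp lay upstream, from 128746427 to 128746628, and 89.2% of the list was at least as wide as that. The promoter mark at MYC thus consisted of 1 of the broadest domains of the list and 1 small upstream peak.

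The RUNX1 peak over the MYC start ran from 128747015 to 128748833 (1819 bp), and 5.55% of RUNX1 peaks were at least as wide. A second RUNX1 peak of 1604 bp followed inside the gene, from 128748976 to 128750579, and another of 254 bp from 128751033 to 128751286. An upstream RUNX1 peak of 748 bp, from 128746151 to 128746898, covered the whole narrow H3K4me3 peak. These 4 peaks overlapped H3K4me3. The fifth, from 128755019 to 128755597 (579 bp), lay beyond the gene's end and 2.7 kb from the mark. RUNX1 peaks covered 66.3% of the bases of the wide H3K4me3 peak, leaving its last 1047 bp bare. Over the 26 H3K4me3 peaks at least as wide, this one included, the median covered share was 71.7% (quartiles 51.7 and 84.5%), so the value at MYC lay within the middle of its class. All 26 overlapped RUNX1, against 88.1% of the whole list, with a median of 3 RUNX1 peaks each. SMA4 overlapped 3 of the 26 (11.5%), against 2.39% of the whole list, and MYC was among the 23 without it. No SMA4 peak came closer to the RUNX1 peaks of MYC than 537.4 kb.

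**Figure D2:**
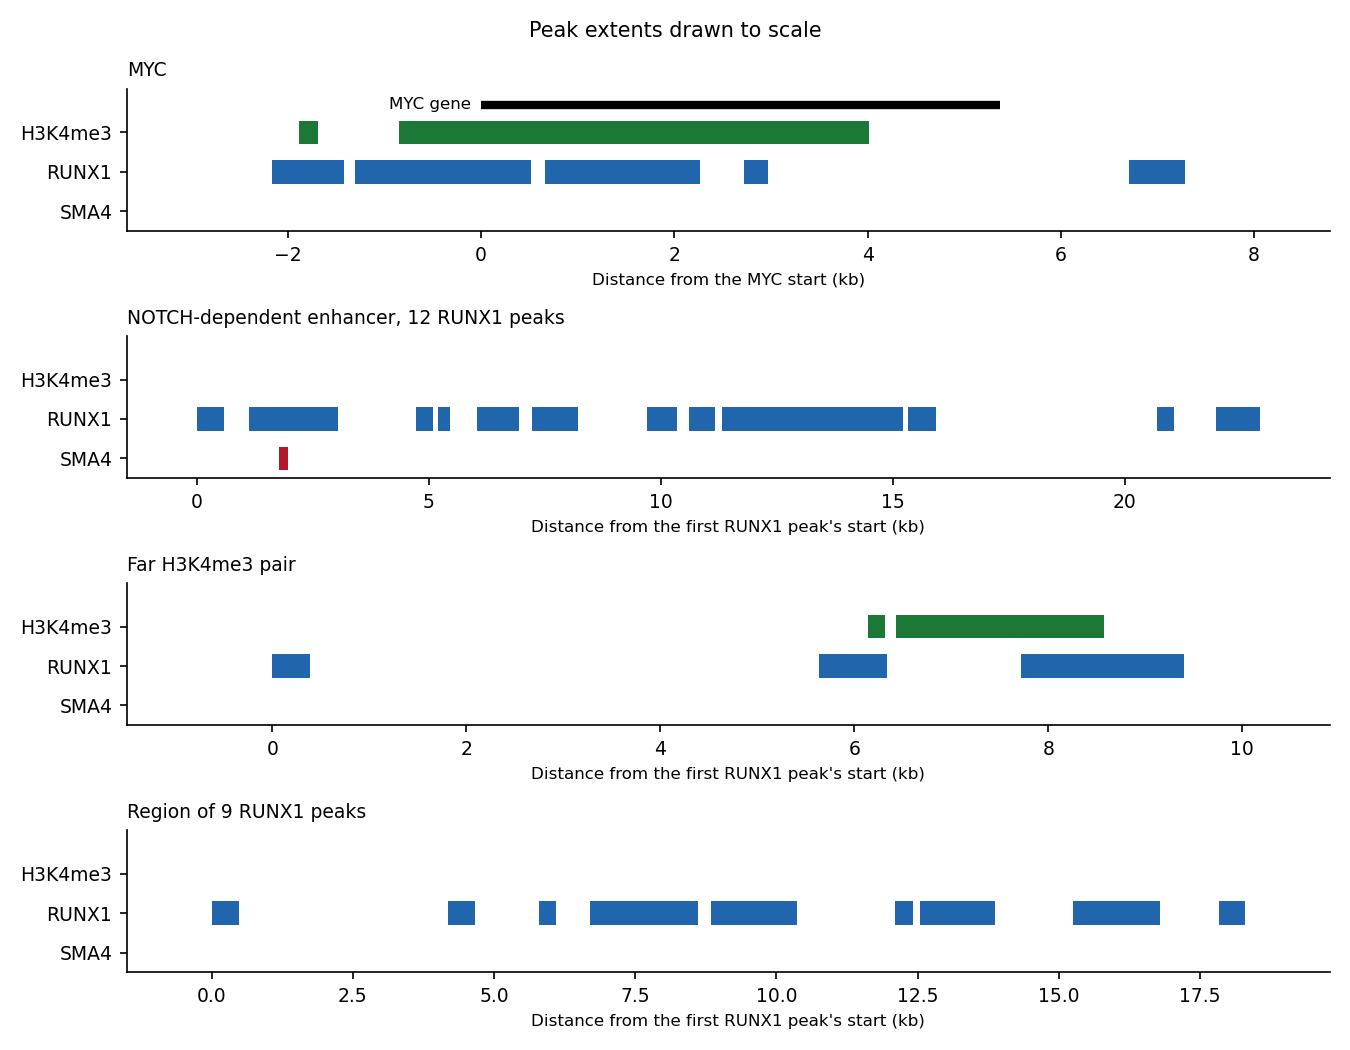
Extents of H3K4me3 (green), RUNX1 (blue) and SMA4 (red) peaks at MYC, at the region of 12 RUNX1 peaks around the NOTCH-dependent enhancer point, at the far pair of H3K4me3 peaks and at the region of 9 RUNX1 peaks, against distance in kb from the MYC start or from the first RUNX1 peak's start. Bars are drawn to scale within a panel, the panels differ in scale, and H3K4me3 bars appear only at MYC and at the far pair.

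PVT1 differed from MYC in that its RUNX1 peaks and its nearest H3K4me3 peak lay apart. An H3K4me3 peak of 766 bp, from 128807067 to 128807832, lay 58.8 kb downstream of the MYC start. The start of PVT1 is known here only to 0.01 Mb, so whether this peak covers it or lies just before it cannot be read from these positions. Its width was unremarkable, since 57.0% of the list was at least as wide. No RUNX1 peak overlapped it, and the nearest was 51.5 kb away, near MYC.

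The 5 RUNX1 peaks inside PVT1 began 228.8 kb downstream of the MYC start, and none overlapped H3K4me3 or SMA4. Their widths were 554, 442, 1201, 386 and 591 bp, in order from 128977080 to 129043778. The widest ran from 128993398 to 128994598, with 18.1% of the RUNX1 list at least as wide. RUNX1 in PVT1 was therefore limited to the stretch from 228.8 to 295.5 kb downstream of MYC.

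Between PVT1 and the NOTCH-dependent enhancer, RUNX1 peaks were narrow and sparse, and most lay in close pairs. These 1020 kb held 8 RUNX1 peaks of 288 to 752 bp and no H3K4me3 or SMA4 peak. The RUNX1 density was 7.84 peaks per Mb, beside 10.4 per Mb on chromosome 8 and 12.1 per Mb over all chromosomes used. With 8 peaks, whether it was lower beyond counting error was not tested. The longest gaps between neighbouring RUNX1 peaks of the window fell here or ran into this segment, 484.0 kb after 129402708 and 356.5 kb after 129043778. A pair of peaks at 129400328 to 129402708 stood alone between them. Other pairs lay at 130071471 to 130074410 and at 130089895 to 130090700.

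The group with the most RUNX1 peaks in the window lay around the point given for the NOTCH-dependent enhancer. The extent of the enhancer itself is not known here, and only the RUNX1 peak from 130179667 to 130181586 covered the point. The segment of 50 kb on either side of the point held no H3K4me3 peak and 1 SMA4 peak. With 100 kb on either side it held 21 RUNX1 peaks and took in 2 H3K4me3 peaks downstream. When RUNX1 peaks with gaps of up to 10 kb were joined into regions, 12 peaks formed 1 region from 130178529 to 130201446, that is 1430.2 to 1453.1 kb downstream of the MYC start. Peaks filled 52.6% of its 22.9 kb. Only 62 of the 21979 RUNX1 regions on all chromosomes held at least as many peaks (0.282%), and 0.241% held at least as many bases in peaks. Of those 62 regions, 48 overlapped H3K4me3 and 14, this one among them, did not. SMA4 was present in 24 of the 62 (38.7%), in 28.0% of regions with at least 9 peaks, in 15.1% of those with at least 5 and in 3.97% of all regions, so its share followed region size. Regions without H3K4me3 made up 22.6% of the 62 and 58.9% of all regions. Of the 14 without H3K4me3, 7 held SMA4.

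The widest RUNX1 peak of the window lay in this region, from 130189850 to 130193743 (3894 bp). It ranked 93 among 36736 RUNX1 peaks (0.253% at least as wide) and was wider than any RUNX1 peak at MYC. Peaks of 564 and 600 bp adjoined it, at gaps of 141 and 120 bp. The second widest of the window, from 130179667 to 130181586 (1920 bp, 4.55% at least as wide), lay 1431.4 kb from MYC. The other 11 peaks of the enhancer segment, including 1 outside the region at 130214494, were 260 to 993 bp wide. The nearest H3K4me3 peak to the widest RUNX1 peak was 57.5 kb away.

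The SMA4 peak of the enhancer ran from 130180316 to 130180489 (174 bp) and lay wholly inside the RUNX1 peak of 1920 bp. It began 649 bp after that peak's start and ended 1097 bp before its end. SMA4 therefore sat on the second widest RUNX1 peak of the window and not on the widest, from which it was 9.4 kb distant. Of 1671 RUNX1 peaks at least 1920 bp wide in the whole list, 174 (10.4%) overlapped SMA4, against 2.56% of all RUNX1 peaks. The SMA4 peak was of ordinary size for its list, with 75.8% of SMA4 peaks at least as wide.

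Downstream of the enhancer, a pair of H3K4me3 peaks lay 1502.9 kb from MYC with RUNX1 on both flanks. The larger ran from 130251551 to 130253696 (2146 bp, 9.40% of the list at least as wide), and the smaller, from 130251262 to 130251440, had the list's minimum width of 179 bp. A RUNX1 peak of 699 bp, from 130250762 to 130251460, covered the smaller one whole. Another of 1689 bp, from 130252839 to 130254527, covered 40.0% of the larger one, whose first 1288 bp were free of RUNX1. This was the only place away from MYC where the mark and RUNX1 met in the window. No gene is assigned to it, since no hg19 gene annotation was used. In RefSeq's gene order for GRCh38, the genes between PVT1 and GSDMC are noncoding or pseudogenes, among them LINC00824, LINC00977 and CCDC26.

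RUNX1 then continued without H3K4me3. Peaks of 1602, 1442 and 221 bp lay from 130266202 to 130271689. A second large region held 9 peaks from 130382643 to 130400938, 1634.3 to 1652.6 kb from the MYC start, with 8.33 kb in peaks. It held 3 of the 10 widest RUNX1 peaks of the window, at 1899, 1527 and 1541 bp. No peak of the other lists lay in it. Over all chromosomes, 161 RUNX1 regions held at least 9 peaks (0.733%), and 36 of them, this one included, overlapped neither H3K4me3 nor SMA4. Of the 161, 31.7% were without H3K4me3, against 58.9% of all regions, and 28.0% held SMA4, against 3.97%. Lacking both was thus no particular trait of this region. The region of 9 peaks lies in neither of the enhancer intervals given above.

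**Figure D3:**
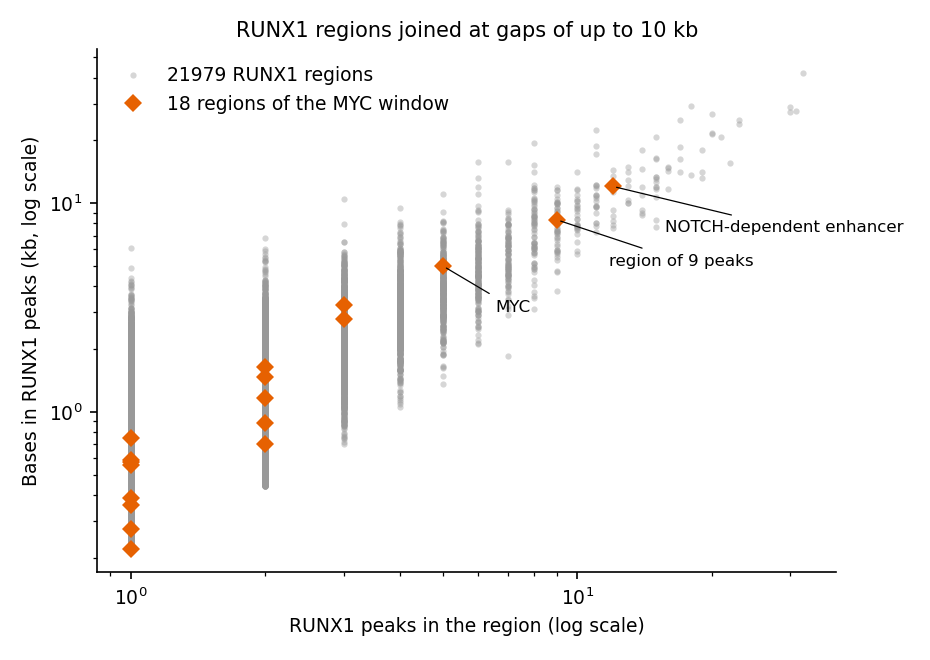
Bases in RUNX1 peaks (kb, log scale) against the number of RUNX1 peaks (log scale) in each of 21979 regions of peaks joined at gaps of up to 10 kb, with the 18 regions of the MYC window in orange. The region around the NOTCH-dependent enhancer point, at 12 peaks, and the region of 9 peaks lie above most regions in number of peaks. The MYC region has 5 peaks.

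The blood enhancer cluster held 1 peak of each list, and these did not coincide. They were a RUNX1 peak of 575 bp from 130547833 to 130548407, an H3K4me3 peak of 286 bp from 130573851 to 130574136 and an SMA4 peak of 198 bp from 130604180 to 130604377. The H3K4me3 peak was 25.4 kb from the RUNX1 peak, and the SMA4 peak was 30.0 kb from H3K4me3 and 55.8 kb from RUNX1. All 3 were of common size for their lists, with 56.2% of RUNX1, 80.1% of H3K4me3 and 61.3% of SMA4 peaks at least as wide. A single peak in 200 kb gives 5.0 per Mb, beside 12.1 for RUNX1, 4.35 for H3K4me3 and 0.486 for SMA4 over all chromosomes used. At the RUNX1 density of all chromosomes 2.42 peaks would fall in this length, which lies inside the exact 95% Poisson interval of a count of 1 (0.0253 to 5.57, counting error only), so a low RUNX1 density was not detectable here. Beyond it, the window held a last RUNX1 peak, of 221 bp, the list's minimum width, at 130738536.

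**Figure D4:**
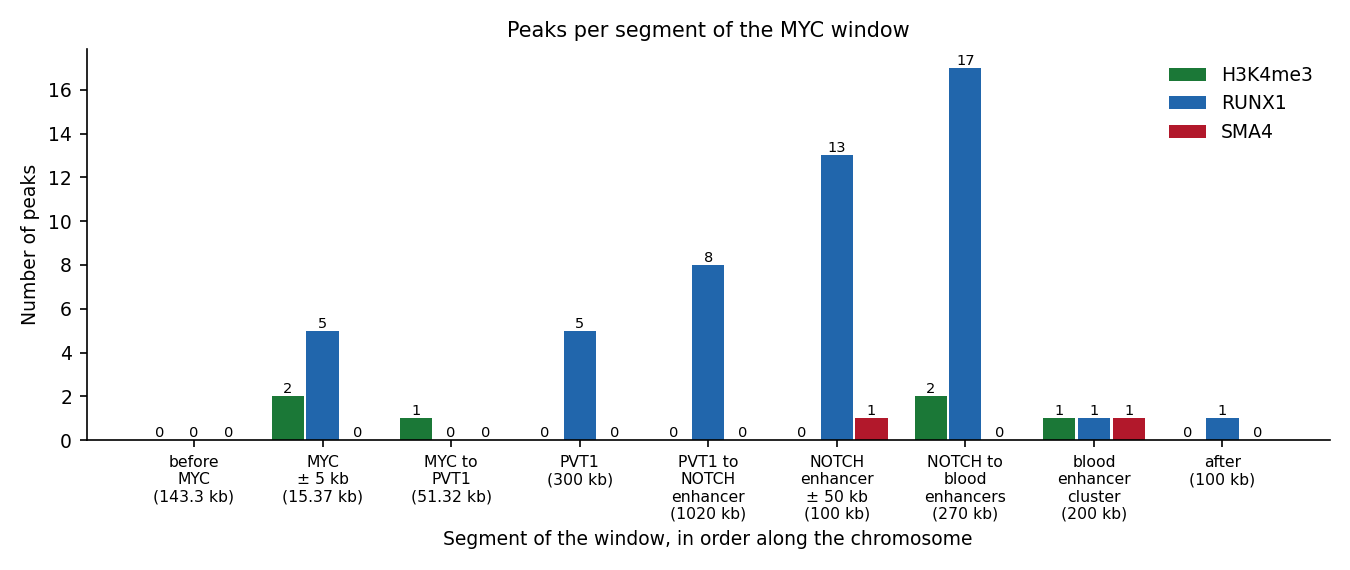
Number of H3K4me3, RUNX1 and SMA4 peaks in each of 9 segments of the window, in order along the chromosome, with each segment's length in kb under its name. Bars are counts and segments differ in length. RUNX1 had 13 peaks in the NOTCH-dependent enhancer segment, 17 in the stretch after it, 5 at MYC and 1 in the blood enhancer cluster. Per Mb, MYC was the densest of these (325, against 130, 63.0 and 5.0), an order that depends on where each segment was cut.

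Most RUNX1 peaks of the window lay outside H3K4me3. Of the 50, 6 overlapped the mark (12.0%, exact 95% binomial interval 4.53 to 24.3%), against 32.2% of the whole RUNX1 list. The 6 were the 4 at MYC and the 2 at the far pair. Their widths ranged from 254 to 1819 bp (median 1176 bp), and those of the 44 others from 221 to 3894 bp (median 559 bp), so the ranges overlapped. Of the 10 widest RUNX1 peaks of the window, 3 overlapped the mark, and 8 lay in the 2 segments from the NOTCH-dependent enhancer to the blood enhancer cluster. In the other direction, 4 of 6 H3K4me3 peaks overlapped RUNX1 (66.7%, exact interval 22.3 to 95.7%), against 88.1% of the H3K4me3 list. With 6 peaks this interval holds the list's share, so no difference can be read from it. Of 2 SMA4 peaks, 1 overlapped RUNX1, against 65.9% of the SMA4 list, and 0 overlapped H3K4me3, against 21.8%. Of the 50 RUNX1 peaks, 1 overlapped SMA4 (2.0%, exact interval 0.0506 to 10.6%), beside 2.56% of the list. None of the 6 H3K4me3 peaks overlapped SMA4, against 2.39% of the list, which leaves little to see in 6 peaks. The intervals allow for counting error alone and treat neighbouring peaks as if they were independent.

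RUNX1 peaks of the window lay close together. The window had 1.88 times the list's RUNX1 density, and the shares here are not matched for density, so closeness beyond it was not tested. Of the 50, 42 (84.0%) were in regions of 2 or more peaks, against 60.2% of the list. The 3 regions with the most peaks, with 12, 9 and 5 at the NOTCH-dependent enhancer, in the stretch after it and at MYC, held 26 peaks. Of 49 gaps between neighbours, 7 were at most 200 bp (14.3%), against 5.51% of gaps in the list. They measured 101 to 142 bp, 2 at MYC, 3 in the enhancer region, 1 in the region of 9 peaks and 1 between PVT1 and the enhancer. With peaks joined across such gaps, the window held 43 RUNX1 peaks.

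Set beside the genome, the window was rich in RUNX1 for its amount of H3K4me3. RUNX1 had 22.7 peaks per Mb, against 10.4 on chromosome 8 and 12.1 over all chromosomes used, and H3K4me3 had 2.73 per Mb, against 3.06 and 4.35. RUNX1 peaks filled 1.86% of the window and 0.962% of all chromosomes used. Among 1252 windows of the same length laid end to end, 217 (17.3%) held more than 50 RUNX1 peaks, so that number by itself was not rare, and the median was 23 (quartiles 9 and 41). H3K4me3 was near the middle, with 6 peaks against a median of 7. There were 8.33 RUNX1 peaks per H3K4me3 peak, against 2.79 in the lists as a whole, and 53 of 1151 windows with H3K4me3 (4.6%) had a higher ratio. Of 229 windows with at least 50 RUNX1 peaks, 4 had no more than 6 H3K4me3 peaks. None of the 4 shared bases with the MYC window. SMA4, with 2 peaks against a median of 1, was unexceptional, as 191 windows (15.3%) held more. The last H3K4me3 peak before the window lay 2157.9 kb upstream of its start, and the last RUNX1 peak 200.2 kb upstream.

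**Figure D5:**
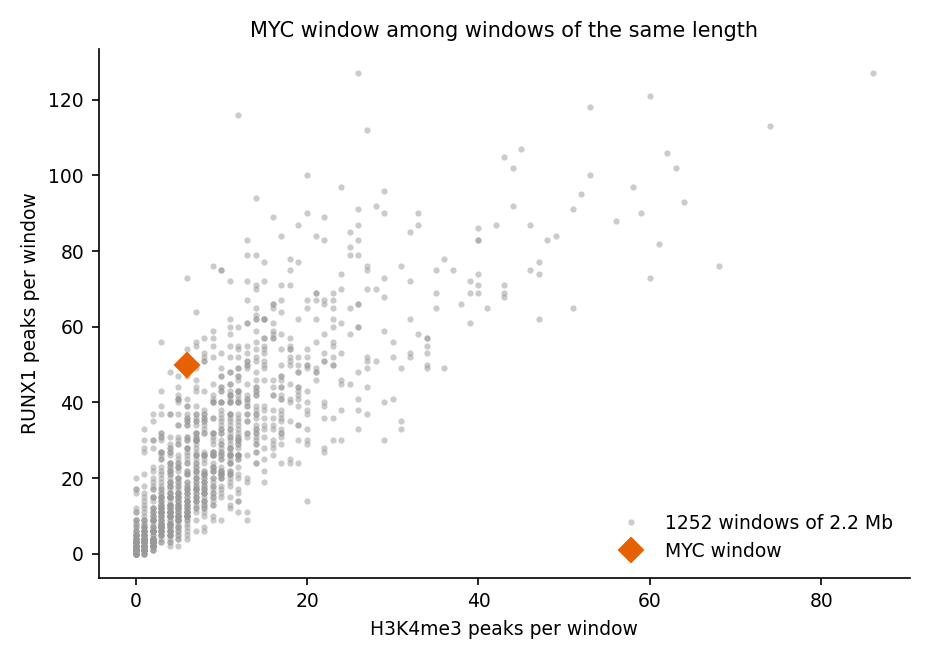
RUNX1 peaks against H3K4me3 peaks in each of 1252 windows of 2.2 Mb (grey), with the MYC window in orange. The MYC window, at 6 H3K4me3 and 50 RUNX1 peaks, lies at the upper left edge of the windows.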

How the data were processed

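The authors deposited 1 peak list per library, holding chromosome, start, end and a peak name, and no score, q-value or read count. Per the file headers, H3K4me3 and RUNX1 peaks came from MACS2 in a folder for batch 2, and SMA4 peaks from cutruntools at a q threshold of 0.01 in a folder for batch 3. Per the submitters' processing notes, MACS2, SEACR and hg19 were used. The aligner is not given in the sources used here.

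Positions were made 1-based. Peaks overlapped when they shared at least 1 bp. MYC, PVT1 and enhancer positions are working coordinates supplied with the window, and RefSeq (GRCh38) gave gene order only. Chromosome length was the highest peak end in the lists, and windows without any peak were left out. With 1 library per antibody no test was made. Exact binomial intervals came from SciPy 1.17.1, with Python 3.11.15, pandas 2.3.3 and NumPy 2.4.6. Interval functions were tested on simulated data.

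The peaks described singly were, by rule, every H3K4me3 and SMA4 peak, those within 5 kb of MYC, the 10 widest RUNX1 peaks, the widest of each segment and the 3 richest regions. Others were chosen after their values were seen. The window, segments and rules were chosen with earlier results of these data known. The comparisons with regions at least as rich, peaks at least as wide and ratios per window, and the Poisson interval, were added after the files were seen. Alternatives changed the overlap rule, flanks, gap, window placement and merging of peaks. No sequence of this chromosome is printed.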

Additional observations from a re-analysis of the deposited data

How the results depend on the processing

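Over 45 values and 118 alternative settings, 106 stayed within fixed limits and 12 moved. The limits were 1.5 times the reported count, the 95% interval of a share, or a set ratio to the reported width. Many of those that stayed were segments with 0 peaks under every setting, and the interval for a share of 6 H3K4me3 peaks is wide. With 1 kb instead of 5 kb on either side, MYC held 1 H3K4me3 and 3 RUNX1 peaks. With 100 kb on either side, the NOTCH-dependent enhancer held 2 H3K4me3 and 21 RUNX1 peaks, leaving 0 and 11 in the stretch after it, so its lack of H3K4me3 depends on the segment's extent. Joining peaks across gaps of up to 200 bp, an alternative chosen after seeing the data, left 3 RUNX1 peaks at MYC and 1 H3K4me3 peak in the stretch after the enhancer. It also put 38.1% of windows below this one in H3K4me3 and 78.8% in RUNX1, against 41.4% and 81.7%. Ranked by bases in peaks, 52.9% of windows lay below it in H3K4me3. The mean H3K4me3 width was 1410 bp against a median of 526 bp. The share of RUNX1 peaks at H3K4me3 ranged from 9.3 to 12.0%. A stricter peak threshold was not run, as the lists give no score. No paired analysis was possible because each antibody had 1 library. For a list with 0 peaks in a segment, counting error alone allows an expected count of up to about 3. This is a rounded bound and not the exact interval used for the blood enhancer cluster.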

Other observations

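The 3 windows of the same length most like the MYC window in their numbers of H3K4me3, RUNX1 and SMA4 peaks lay on other chromosomes. The closest, on chromosome 3 from 30800001 to 33000000, held 6 H3K4me3, 47 RUNX1 and 2 SMA4 peaks. The next were on chromosome 7 from 90200001 to 92400000, with 7, 44 and 2 peaks, and on chromosome 9 from 96800001 to 99000000, with 7, 43 and 2. Among 13127 bins of 100 kb, 134 (1.02%) held at least the 13 RUNX1 peaks of the NOTCH-dependent enhancer segment. Of these, 27 held no H3K4me3 peak, and 9 of the 27 held SMA4, beside 39 of all 134. The shares of all 13127 bins without H3K4me3 or with SMA4 were not counted, so these numbers are not read as a trait of such bins.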
